A study of Mus musculus with 384 samples.

Results

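The 10 genes described here serve the presentation of peptides by class I molecules of the major histocompatibility complex (MHC) in mouse liver. They were chosen by name and function: the classical heavy chains H2-K1 and H2-D1, the liver heavy chain H2-Q10, the light chain B2m, the peptide transporter subunits Tap1 and Tap2, the loading chaperone Tapbp, the immunoproteasome subunits Psmb8 and Psmb9, and the transactivator Nlrc5. Earlier results of these data were known when the genes were chosen. Each gene was found in the deposited table through its Ensembl ID and the GENCODE M21 annotation, which made 10 of 21454 genes. All 10 were above 0 in each of the 192 mice and passed the filter on low values, as did 14606 genes in all.

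The study sequenced RNA from the livers of Diversity Outbred mice, which descend from crosses between several inbred strains, with single-end reads of 100 bp. All mice were wild type and 26 weeks old. The groups were males on a high fat diet (46 mice), males on chow (48), females on a high fat diet (48) and females on chow (50). The high fat diet held 22% fat by weight and the chow 6%, and each mouse ate its diet from weaning. The mouse is the unit of replication, since the table holds 1 column for each mouse although each was sequenced in 2 technical repeats. A generation label divided the mice into G11L1 (97 mice) and G11L2 (95 mice), both present in every group. Every mouse of such a stock carries its own mix of founder chromosomes, so the members of a group are not genetically alike, and founder haplotypes and genotypes were not analysed here.

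Class I molecules carry short peptides, cut from proteins inside the cell, to the cell surface, where CD8 T cells and natural killer cells read them. Proteasomes cut the proteins, and in cells exposed to interferon the immunoproteasome subunits take the place of their constitutive counterparts. The TAP transporter moves the peptides into the endoplasmic reticulum, where tapasin and other chaperones fit them to a heavy chain bound to beta-2 microglobulin. In liver, hepatocytes make up most of the tissue mass, while Kupffer cells, sinusoidal endothelial cells and lymphocytes also carry class I molecules. In RNA from whole liver, fewer cells of a type and less RNA per cell cannot be told apart.

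Depth, estimated from the low values, was 9.78 to 17.9 M reads (megareads) per mouse, and group medians ran from 13.8 to 14.6 M. The 9 hepatocyte markers tested, albumin among them, were above 0 in every mouse. In all, 9 mice carried pancreas transcripts above a summed signal of 50. Xist signal was under 1 in 1 mouse labelled female, whose label was kept.

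Short stretches of the promoters are shown for the heavy chains and B2m, because they hold the sequence elements for which class I genes are known: a site for NF-kB in enhancer A, and an interferon-stimulated response element (ISRE). The windows come from RefSeq on GRCm38.p6, read 5′ to 3′ on the strand of the gene, and capitals mark GGGATTCCC and TTTCACTTC, or GAAANNGAA in B2m. They lie at chr17:34000429-34000458 on the minus strand for H2-K1, chr17:35262923-35262952 on the plus strand for H2-D1, chr17:35469913-35469942 on the plus strand for H2-Q10 and chr2:122147538-122147566 on the plus strand for B2m.
H2-K1: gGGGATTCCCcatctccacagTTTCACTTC
H2-D1: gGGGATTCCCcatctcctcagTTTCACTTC
H2-Q10: gaggactccccatctccccagTTTCACTTC
B2m: ataagaacatGAAACTGAAaatgggaaag
The windows start 111 bases upstream of the RefSeq start site in H2-K1, 171 in H2-D1, 176 in H2-Q10 and 149 in B2m. The H2-D1 window also lies in the first exon of 1 other annotated H2-D1 transcript.

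Counted from 1 at the 5′ end of the window, H2-D1 differed from H2-K1 by A18T alone, an identity of 96.7%. H2-Q10 differed from H2-K1 by G2A, T6C and A18C, an identity of 90%, and the first pair of these changes falls within GGGATTCCC. That word stood in the 250 bases upstream of H2-K1 and H2-D1 on either strand, and in 0.301% of 32544 such promoters. The word TTTCACTTC stood upstream of H2-K1, H2-D1 and H2-Q10, and in 0.403% of promoters. GAAANNGAA is a looser and different word, which TTTCACTTC does not match on either strand. It stood upstream of B2m, but not of H2-K1, H2-D1 or H2-Q10, and in 7.15% of promoters. A match is a description of letters and not a measured site. Promoter entries matched 8 of the 10 genes, the others being Tap2 and Nlrc5.

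The genes other than B2m and Nlrc5 lie in the MHC on mouse chromosome 17, as annotated on GRCm38. H2-K1 spans chr17:33996017-34000347 on the minus strand, H2-D1 chr17:35262730-35267499 and H2-Q10 chr17:35470089-35474563, both on the plus strand. Tapbp spans chr17:33915899-33929292, Psmb9 chr17:34181987-34187764 on the minus strand, Tap1 chr17:34187553-34197225, Psmb8 chr17:34197721-34201454 and Tap2 chr17:34203527-34216321, on the plus strand where not stated. B2m lies elsewhere, at chr2:122147686-122153083, and Nlrc5 at chr8:94434356-94527272, both on the plus strand. Tap1 and Psmb9 overlap by 212 bases on opposite strands, and whether the reads were counted by strand is not given in the sources used here, so reads in the overlap cannot be told apart.

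Some of the signal may be shared between related or overlapping genes. The share of 50-base words that also occur in transcripts of another gene was 6.87% for H2-K1, mostly shared with H2-D1, and 13.9% for H2-D1 and 7.73% for H2-Q10, both mostly shared with H2-Q1. The share was largest for Tapbp, 22.4%, mostly with Gm19412, an overlapping antisense gene. It was 12.1% for Tap2, mostly with Gm15821, and 5.51% for Psmb8, with Gm20496. For Psmb9 it was 9.71%, with Tap1, and for Tap1 6.27%, mostly with Psmb9. No such word was found for B2m or Nlrc5. Tapbp also overlaps Zbtb22 by 3422 bases on the same strand. Zbtb22 had a median signal of 3.6, against 16.5 for Tapbp, and its part in the Tapbp signal was not tested. Classical heavy chain genes are highly polymorphic between mouse strains. How reads from alleles unlike the reference were aligned is not given in the sources used here, and its part in the levels of H2-K1, H2-D1 and H2-Q10 was not tested.

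Per kilobase of transcript, the light chain and the heavy chains stood far above the processing machinery. B2m, the light chain shared by all class I molecules, had the highest median signal per kilobase over all mice, 299, and ranked 40th of the tested genes with a length. H2-Q10, a soluble class I molecule secreted by the liver, followed with 167 per kilobase, H2-K1 with 72.8 and H2-D1 with 33.7. Tapbp, which encodes tapasin, had 5.69 per kilobase. Psmb8 had 3.48, Psmb9 3.19, Tap2 2.69 and Tap1 2.05 per kilobase. Nlrc5, which switches on class I genes in the nucleus, was lowest at 0.629 per kilobase. In this order Psmb8 and Psmb9, Psmb9 and Tap2, and Tap2 and Tap1 are neighbours whose means differed by less than the SD between mice of either gene. Their means were 3.67 ± 1.22 for Psmb8, 3.37 ± 1.23 for Psmb9, 2.85 ± 0.692 for Tap2 and 2.19 ± 0.775 for Tap1 per kilobase (SD, n = 192).

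**Figure D1:**
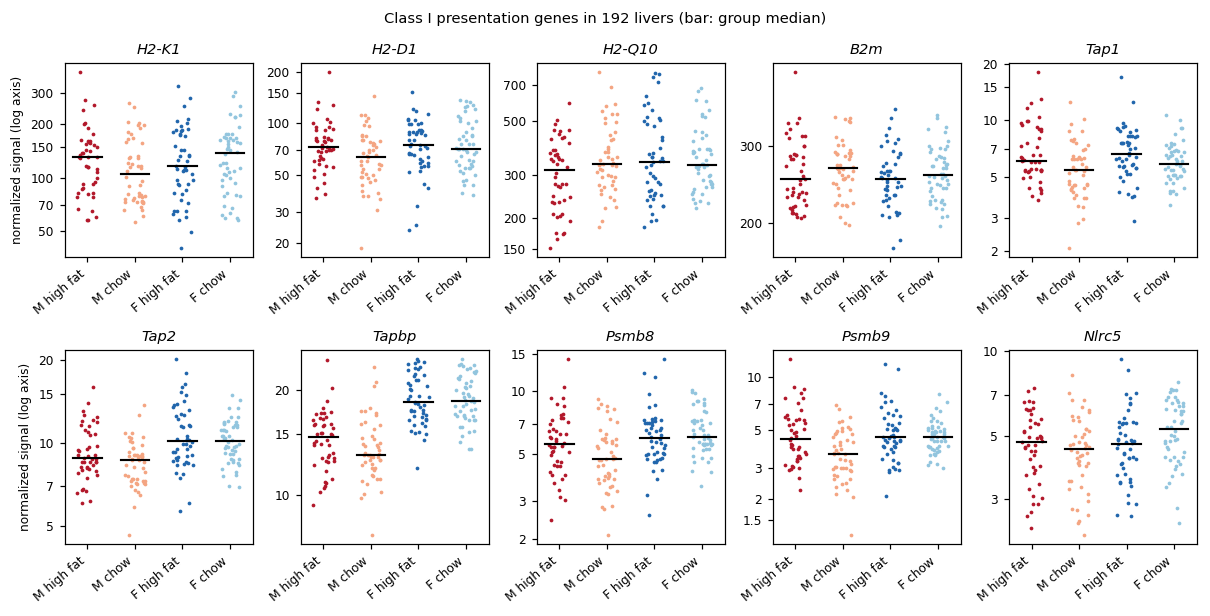
Normalized signal (log axis) of each of the 10 genes in every mouse, in high fat males (46), chow males (48), high fat females (48) and chow females (50), with a bar at each group median. The groups overlap for every gene, and Tapbp shows the clearest offset, with medians of 14.7 and 13.1 in high fat and chow males and 18.4 and 18.7 in high fat and chow females.

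Spread between mice differed widely among the 10 genes. Over all mice the highest signal was 10.8 times the lowest for H2-D1, 10.4 times for Psmb9 and 9.85 times for H2-K1. It was 8.7 times for Tap1, 6.82 for Psmb8, 5.25 for H2-Q10, 4.33 for Tap2, 4.16 for Nlrc5, 3.19 for Tapbp and 2.52 for B2m. After group means and the generation label were removed, the residual SD on the log2 scale was 0.631 for H2-K1, 0.517 for H2-D1 and 0.488 for H2-Q10. The median over all tested genes was 0.322. B2m varied least, with a residual SD of 0.22.

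None of the 10 genes fell into separate modes by a mixture rule that asks for 2 or more well separated components, while 7.19% of all tested genes did. Within single groups, more than 1 component was fitted only for H2-K1 and H2-D1, each in 1 group. In chow males, H2-K1 was described by 2 components at log2 levels of 6.20 and 7.14, with 40.2% and 59.8% of the mice, and the gain in the Bayesian information criterion, 5.16, was under the 10 the rule asks for. In high fat females, H2-D1 had a small component at 4.87 with 7.37% of the mice beside one at 6.29. Its gain was 1.7. Among the other class I heavy chain genes, 4 of 18 did have separate modes by this rule: H2-Q2, H2-T22, H2-T10 and H2-M2. Of these, H2-M2 had a median signal of 0.0594, under the pseudocount of 0.0629, and H2-Q2 had values down to 0.0164. Their modes thus reach the floor of the signal, while H2-T22 and H2-T10 had medians of 13.3 and 5.49.

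Sex was the first comparison, males against females averaged over both diets. Tapbp, Tap2, Psmb8 and Psmb9 were lower in males, and no gene of the 10 was higher in males. Tested with limma and Benjamini-Hochberg adjustment over all 14606 genes, a gene was called when its adjusted p was under 0.05. Of all genes, 68.5% were called, so a sex difference was common in these livers, and 23.5% were called lower in males. The 4 of 10 called here are read against these shares as a description. The median change of the 10 was -0.12, against 0.07 over all genes.

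Tapbp had the largest sex difference. In high fat males its signal had a lowest value of 9.41, a median of 14.7 and a highest of 24.4. In chow males these were 7.7, 13.1 and 23.3. In high fat females they were 12, 18.4 and 24.5, and in chow females 13.6, 18.7 and 24.5. The male medians lay below both female medians, and the ranges of the groups overlapped. The log2 change was -0.43 ± 0.0376 (SE), a 1.35-fold lower level in males, with an adjusted p of 3.1e-22 by limma.

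The transporter gene Tap2 had medians of 8.81 and 8.68 in high fat and chow males, and 10.2 in both female groups. Its ranges overlapped, from 6.06 to 16 in high fat males and 4.64 to 13.7 in chow males, against 5.7 to 20.1 in high fat females and 6.95 to 14.9 in chow females. Its change was -0.23 ± 0.0445, with an adjusted p of 1.61e-06 by limma. Its partner Tap1 was not called, with a change of -0.07 and an adjusted p of 0.34 by limma.

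Psmb8, the immunoproteasome subunit that replaces the chymotrypsin-like Psmb5, had medians of 5.61 and 4.74 in high fat and chow males and 5.96 and 6.02 in high fat and chow females. Its change was -0.23 ± 0.0638, with an adjusted p of 0.000644 by limma. Psmb9, which replaces Psmb6, had medians of 4.42 and 3.63 in high fat and chow males, against 4.5 in both female groups. Its change was -0.18 ± 0.0657 and its adjusted p 0.00946 by limma. In both genes the male chow group was the lowest. Within G11L1 and G11L2 mice, the change was -0.39 and -0.47 for Tapbp, -0.27 and -0.19 for Tap2, -0.24 and -0.23 for Psmb8, and -0.23 and -0.13 for Psmb9. All of these were called by limma but that of Psmb9 within G11L2, with an adjusted p of 0.21. H2-K1, H2-D1, H2-Q10, B2m and Nlrc5 had changes of -0.08, -0.12, -0.11, 0.03 and -0.12, none called, with adjusted p from 0.0523 for Nlrc5 to 0.422 for H2-K1 by limma. Nlrc5 lay at the threshold: it was called lower in males with a stricter filter (0.0487), rank scores (0.0437), array weights (0.026), coat colour as a covariate (0.0355) or the mouse number as a block (0.0491), under both rescalings, and without the 10 mice least alike the others (0.0424), a set chosen after the data were seen. Without the mice with pancreas transcripts its adjusted p was 0.124 by limma.

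Upper-quartile values are set by the upper quartile of each mouse, so a shift of most genes relative to that quartile stays in them. The split of calls over all genes moved with the scaling. As deposited, 6575 genes were called higher and 3426 lower in males. Rescaling by median of ratios gave 4440 higher and 4899 lower, while quantile normalization gave 4984 higher and 4361 lower. Of the 10 genes, 8 were called lower in males with the first of these and 9 with the second, under which B2m changed sign (-0.14).

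Other genes of the pathway moved in both directions. Over all genes as deposited, 45% were called higher and 23.5% lower in males. Of the genes listed as loading and trimming helpers, most of which fold the class I complex or cut peptides, 8 of 11 were higher in males and 1 lower. Those higher included Pdia3, which holds tapasin in the loading complex, at 0.55. Sppl2a, a gene of the list outside folding and trimming, was also at 0.55. All 3 constitutive catalytic subunits were higher in males, Psmb5 by 0.25, Psmb7 by 0.19 and Psmb6 by 0.10, as were 10 of the 11 other 20S subunits. Under either rescaling 2 of the 3 and 6 of the 11 stayed called higher, and Psmb6 was at 0.01 after median-of-ratios rescaling. Psmb10, the immunoproteasome subunit that replaces Psmb7, was lower in males, with a change of -0.39 and an adjusted p of 9.46e-14 by limma. It is 1 of 6 genes listed as immunoproteasome partners and regulators, of which 3 were higher and 2 lower in males. Of the other class I heavy chain genes, 2 of 18 were higher and 12 lower in males, with H2-Q4 at -0.30 and Mr1 at -0.49. Interferon gamma GTPases and their receptor genes had 1 of 19 higher and 14 lower, with Gbp2 at -1.22 and Gbp7 at -0.91. Type I interferon stimulated genes were more mixed, with 5 of 26 higher and 10 lower in males. Transcription regulators of class I had 6 of 15 higher and 5 lower.

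Markers of immune and endothelial cells were lower in males too, where 23.5% of all genes were called lower. Kupffer cell markers were lower in males for 14 of 14 genes, class II genes for 8 of 8, T, NK and B cell markers for 14 of 15, sinusoidal endothelial markers for 10 of 11 and dendritic cell markers for 5 of 7. Of the T, NK and B cell markers, 1 was called higher in males. Hepatocyte markers went both ways, with 5 of 9 higher and 2 lower in males. The summed Kupffer signal ranged from 51.6 to 253 in high fat males and from 43.3 to 179 in chow males, against 55.1 to 283 in high fat females and 72.6 to 518 in chow females. The summed T, NK and B cell signal ranged from 0.938 to 5.4 in high fat males and 0.823 to 3.48 in chow males, against 1.11 to 6.97 in high fat females and 1.22 to 5.56 in chow females. Ncr1 was at 0 in 38 mice and Cd8b1 in 32. The part of these markers in the sex differences of Tapbp, Tap2, Psmb8 and Psmb9 was not tested.

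**Figure D2:**
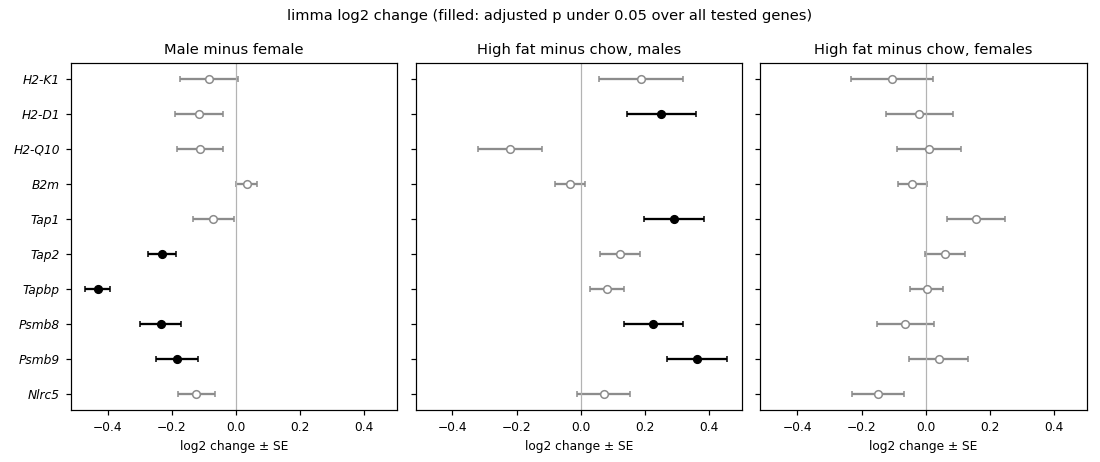
Log2 change with its SE (error bars) for each of the 10 genes in the sex and diet comparisons, from limma. Tapbp stands at -0.43 for sex, and Psmb9 at 0.36 for diet in males.

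Diet was compared next, high fat against chow. Averaged over both sexes, Tap1 and Psmb9 were higher on the high fat diet and no gene of the 10 was called lower. Of all genes 56.9% were called, and 15% were called higher on the high fat diet, so 2 of 10 is close to the background. The median change of the 10 genes was 0.06, against -0.07 over all genes. Tap1, the transporter subunit beside Psmb9 on the chromosome, changed by 0.22 ± 0.0651 with an adjusted p of 0.00198 by limma. Psmb9 changed by 0.20 ± 0.0658 with an adjusted p of 0.00597 by limma. Within G11L1 and G11L2 mice, Tap1 changed by 0.29 and 0.16 (adjusted p 0.0125 and 0.133 by limma) and Psmb9 by 0.20 in both (0.0789 and 0.0647).

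In males, 4 of the 10 genes were called, all higher on the high fat diet, where 51.2% of all genes were called and 11.4% were called higher. They were Psmb9, Tap1, Psmb8 and H2-D1, and the median change of the 10 was 0.155, against -0.10 over all genes. Psmb9 ranged from 2.25 through a median of 4.42 to 12.8 in high fat males, and from 1.23 through 3.63 to 6.96 in chow males. The ranges overlapped, with the highest high fat males well above any chow male. Its change was 0.36 ± 0.094, a 1.28-fold higher level, with an adjusted p of 0.000627 by limma. Tap1 ranged from 3.73 through 6.08 to 18.1 in high fat males and from 2.08 through 5.43 to 12.4 in chow males, and changed by 0.29 ± 0.0931 with an adjusted p of 0.00584 by limma.

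Psmb8 ranged from 2.46 through 5.61 to 14.1 in high fat males and from 2.08 through 4.74 to 9.16 in chow males, and changed by 0.23 ± 0.0913 with an adjusted p of 0.0305 by limma. H2-D1 ranged from 36.4 through 72.1 to 200 in high fat males and from 18.6 through 63.9 to 145 in chow males, and changed by 0.25 ± 0.107 with an adjusted p of 0.0411 by limma. The high fat and chow ranges overlapped for both genes. These calls were near the threshold: without the 10 mice least alike the others, chosen after the data were seen, the adjusted p was 0.0679 for Psmb8 and 0.128 for H2-D1. Within G11L1 and G11L2 mice the change was 0.23 and 0.22 for Psmb8 and 0.18 and 0.31 for H2-D1, none of them called (adjusted p 0.102 or higher by limma). With array weights, too, Psmb8 (0.0545) and H2-D1 (0.0714) lost the call. For Psmb9 the change within the generation labels was 0.37 and 0.36, both called, and for Tap1 0.34 and 0.24, with adjusted p of 0.042 and 0.132 by limma. H2-Q10 was not called, with medians of 314 in high fat males and 332 in chow males, a change of -0.22 ± 0.101 and an adjusted p of 0.0587 by limma. It was called lower in high fat males with rank scores (0.0384), array weights (0.044) or coat colour as a covariate (0.022).

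In females, none of the 10 was called by limma, and none had an unadjusted p under 0.05, while 33.3% of all genes were called. The lowest adjusted p was 0.149, for Nlrc5, with medians of 4.7 in high fat females and 5.31 in chow females. Tap1 had medians of 6.58 in high fat females and 5.85 in chow females, and Psmb9 had a median of 4.5 in both. The difference between the diet changes of males and females was tested as an interaction and called for none of the 10 by limma, against 8.37% of all genes. At an unadjusted p under 0.05 there were 2, Psmb8 and Psmb9, with adjusted p of 0.139 and 0.105. A diet change in males alone is therefore not shown for these genes by signal level. The generation label was not associated with any of the 10, against 0.938% of all genes, with a lowest adjusted p of 0.416 by limma and none at an unadjusted p under 0.05.

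Scaling moved the diet splits as well. As deposited, 2185 genes were called higher and 6126 lower on the high fat diet. Rescaling by median of ratios gave 3634 higher and 3338 lower, and quantile normalization gave 3057 higher and 3680 lower. In males, 1669 genes were called higher and 5810 lower as deposited, 2827 and 2453 with median of ratios, and 2185 and 2723 with quantiles. In females, 1460 were called higher and 3400 lower as deposited, 2194 and 2142 with median of ratios, and 2106 and 2246 with quantiles. The interaction split was 213 higher and 1010 lower as deposited, 311 and 306 with median of ratios, and 269 and 364 with quantiles. For the generation label the split was 58 and 79 as deposited, and 155 and 107 with median of ratios. In males the median of all genes was 0.01 with median of ratios and -0.10 as deposited. Of the 10 genes, 6 were higher on the high fat diet in the average of the sexes with median of ratios and 7 with quantiles, and in males 6 and 8. Relative to the median of all genes, the change of Psmb9 in males was 0.46 as deposited and with median of ratios, and 0.48 with quantiles. For Tap1 it was 0.39 as deposited and with median of ratios, and 0.43 with quantiles.

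Of all genes as deposited, 15% were called higher and 41.9% lower on the high fat diet in the average of the sexes. In males these shares were 11.4% and 39.8%, and in females 10% and 23.3%. Of the loading and trimming helpers, 10 of 11 were lower in the average of the sexes, as were 10 of 11 with median of ratios and 7 of 11 with quantiles. Transcription regulators of class I genes had 2 of 15 higher and 6 lower, near the shares of all genes, but 4 higher and 3 lower under either rescaling. Other class I heavy chain genes had 3 of 18 higher and 3 lower, and of the immunoproteasome partners and regulators 5 of 6 were lower as deposited, with 3 of 6 after median-of-ratios rescaling and 1 of 6 with quantiles. All 3 constitutive catalytic subunits fell on the high fat diet in males, Psmb7 by 0.26, Psmb6 by 0.22 and Psmb5 by 0.21 on the log2 scale, as did 11 of 11 other 20S subunits. With median of ratios 3 of 3 and 7 of 11 stayed lower, and with quantiles 2 of 3 and 5 of 11. Of 26 type I interferon stimulated genes, 20 were higher on the high fat diet in the average of the sexes by limma, among them Oas1a at 0.70 and Ifit2 at 0.46. The median of that list was 0.35, against -0.07 over all genes. In males 10 of 26 were higher as deposited, 18 with median of ratios and 13 with quantiles, and in females 11 of 26 under each of the 3. Of the interferon gamma list, 5 of 19 were higher and 1 lower in males as deposited, while 9 were higher with median of ratios and 8 with quantiles, and none was lower by limma under either. Among its genes were Cxcl10, a chemokine that draws T cells, at 0.83 and Gbp2 at 0.49.

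Markers of cell types moved with diet in males as well. Over all genes as deposited, 11.4% were called higher and 39.8% lower in high fat males. Kupffer cell markers were higher on the high fat diet for 8 of 14 genes and lower for 1, with summed medians of 114 in high fat males and 97 in chow males. Dendritic cell markers were higher for 2 of 7 genes, with Itgax at 1.41, and their sum ranged from 2.18 to 9.08 in high fat males and from 2.03 to 4.72 in chow males. Class II genes were higher for 3 of 8, with sums of 13.3 to 136 in high fat males and 20.5 to 88 in chow males. Sinusoidal endothelial markers were higher for 1 of 11 and lower for 3, with sums of 68 to 132 in high fat males and 74.3 to 143 in chow males. No T, NK and B cell marker of 15 was called by limma as deposited, and 1 was called higher with median of ratios. Hepatocyte markers were lower for 9 of 9, for 8 with median of ratios and for 4 with quantiles, with Fga, a chain of fibrinogen, at -0.57 and Cps1, an enzyme of the urea cycle, at -0.47. With median of ratios and with quantiles the genes called higher were 9 and 9 for Kupffer, 3 and 1 for dendritic, 5 and 4 for class II and 3 and 4 for sinusoidal markers. In females, as deposited, Kupffer markers were higher for 1 of 14 and lower for 3, dendritic markers higher for 2 of 7, and no class II gene was called. By limma's interaction term none of the genes on these 3 lists was called, so a shift in males alone is not shown for them. The part of the cell type markers in the diet changes of Psmb9, Tap1, Psmb8 and H2-D1 was not tested.

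Ratios of genes within a mouse do not depend on a factor common to all genes of that mouse, such as the one median of ratios applies, while quantile normalization can change them. They were computed from the deposited values alone. The ratio of each immunoproteasome subunit to the constitutive subunit it replaces was compared, as was the ratio of H2-Q10 to the sum of H2-K1 and H2-D1. In all, 24 comparisons were made, tested by permutation with 100000 resamples and adjusted by Benjamini-Hochberg.

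Psmb9 over Psmb6 had a median of 0.284 in high fat males and 0.189 in chow males, and of 0.282 in high fat females and 0.261 in chow females. The lowest and highest values were 0.136 and 0.803 in high fat males, 0.0626 and 0.376 in chow males, 0.152 and 0.859 in high fat females and 0.172 and 0.527 in chow females. Chow males stood lowest. In males the log2 difference between the diets was 0.58 ± 0.111, with an adjusted permutation p of 4.8e-05, which comes from 1e-05, the smallest these permutations can give. In females it was 0.11 with an adjusted permutation p of 0.326. The difference of males minus females was -0.51 on chow (adjusted permutation p 4.8e-05) and -0.05 on the high fat diet (0.791).

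Psmb8 over Psmb5 had medians of 0.43 in high fat males and 0.315 in chow males, and of 0.529 in high fat females and 0.482 in chow females. The difference between the diets was 0.44 ± 0.110 in males (adjusted permutation p 0.0006) and 0.03 in females (0.804). The difference of males minus females was -0.28 on the high fat diet (adjusted permutation p 0.0292) and -0.69 on chow (4.8e-05). The smaller of these was not called within either generation label (0.158 and 0.161). Psmb10 over Psmb7, whose numerator is not among the 10 genes, had medians of 0.208 in high fat males and 0.182 in chow males, and of 0.283 in high fat females and 0.288 in chow females. Its difference between the diets was 0.26 in males (adjusted permutation p 0.0024) and 0.01 in females (0.893). Males minus females, the difference was -0.46 on the high fat diet and -0.71 on chow (adjusted permutation p 4.8e-05 for each). The denominators moved as well. As deposited, all 3 constitutive subunits were called lower on the high fat diet in males by limma, with a median change of -0.216. All 3 were also called higher in males than in females, with a median of 0.195. A difference in these ratios is thus not a change of the immunoproteasome subunit alone.

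The heavy chain ratio moved the opposite way. H2-Q10 over H2-K1 plus H2-D1 ranged from 0.766 through a median of 1.41 to 4.48 in high fat males and from 0.64 through 2.13 to 3.9 in chow males. In females it ranged from 0.482 through 1.77 to 4.41 on the high fat diet and from 0.754 through 1.72 to 3.63 on chow. The log2 difference between the diets was -0.44 ± 0.122 in males (adjusted permutation p 0.00233) and 0.07 in females (0.728). Males minus females, it was -0.26 on the high fat diet (adjusted permutation p 0.0768) and 0.24 on chow (0.0946), neither called. Without the mice with pancreas transcripts, left out after the data were seen, the value on the high fat diet was -0.30 and was called (0.041). Within single generation labels, 3 of the diet differences in males lost the call: the heavy chain ratio (-0.43) and Psmb8 over Psmb5 (0.38) in G11L2, each with an adjusted permutation p of 0.0985, and Psmb10 over Psmb7 (0.22) in G11L1, with one of 0.0915. H2-D1 over H2-K1, with medians between 0.555 and 0.568, and Tap2 over Tap1 differed in none of their 4 comparisons each.

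The difference between the diet changes of the sexes was itself tested for the 6 ratios, a test added after the data were seen. It was -0.51 ± 0.173 for the heavy chain ratio, 0.41 ± 0.141 for Psmb8 over Psmb5, 0.47 ± 0.141 for Psmb9 over Psmb6 and 0.25 ± 0.104 for Psmb10 over Psmb7. Adjusted permutation p were 0.0087, 0.0087, 0.00618 and 0.0249 in that order. Within G11L1 mice the heavy chain, Psmb8 and Psmb9 ratios each had an adjusted permutation p of 0.0439, and Psmb10 one of 0.327. Within G11L2 mice all 4 had 0.142, with the same signs. Without the 10 mice least alike the others Psmb10 had 0.0777.

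**Figure D3:**
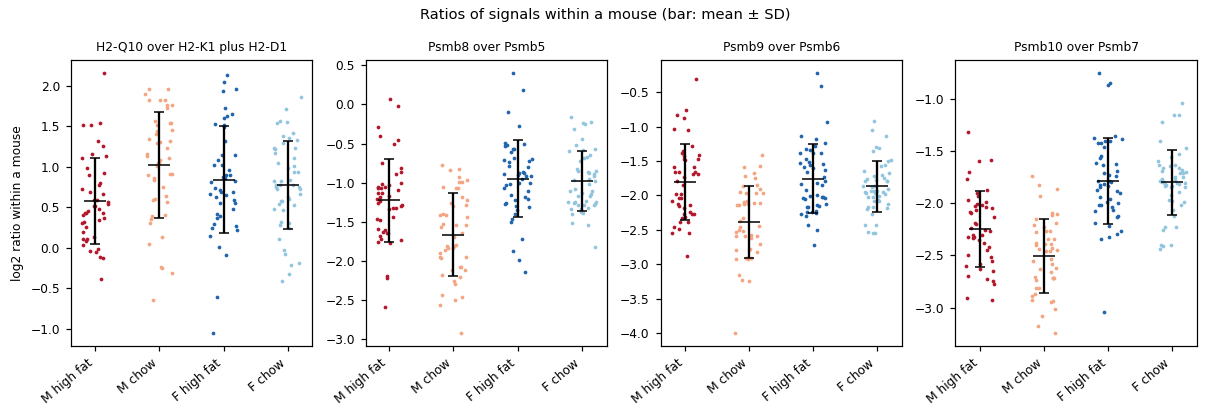
Log2 ratios within each mouse, by group of sex and diet in males and females on high fat diet and chow, with bars at the mean and SD. Chow males have the lowest mean log2 ratio for Psmb9 over Psmb6 (-2.38) and the highest for H2-Q10 over H2-K1 plus H2-D1.

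Correlations across the mice of a group show which members vary together. For all 45 pairs in each of the 4 groups, 180 correlations in all, Pearson's r was tested by permutation and adjusted by Benjamini-Hochberg over the 180. Of these, 99 were called, each of them positive, and Spearman's rho was called in 89. Positive correlations were also the more common kind over all pairs of tested genes, which share their libraries. The lowest r called was 0.35, 0.32, 0.32 and 0.32 in high fat males, chow males, high fat females and chow females, and 9.23%, 6.65%, 9.09% and 6.31% of all pairs of tested genes reached it in the same groups. The median r of the 45 pairs was 0.43, 0.30, 0.37 and 0.38 in that order, against 0.04, 0.02, 0.03 and 0.03 over all pairs. By group, 27 of 45 pairs were called in high fat males, 20 in chow males, 27 in high fat females and 25 in chow females. After leaving out the 2 mice farthest from the median of the first gene of a pair, 174 of 180 kept their sign. Within G11L1 mice 62 were called and within G11L2 mice 53. Without the mice with pancreas transcripts 97 were called, without the female with little Xist 100, and without the 10 mice least alike the others 94.

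**Figure D4:**
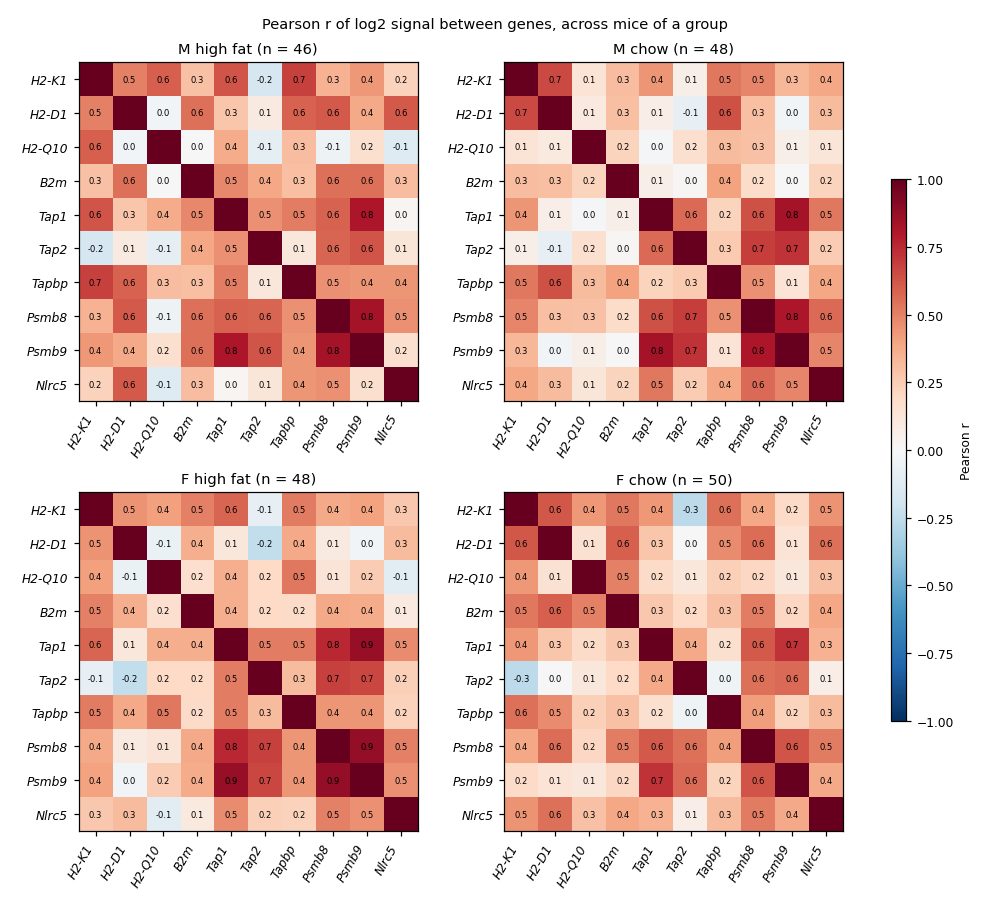
Pearson r of log2 signal between the 10 genes across the mice of each group, with red for positive and blue for negative values. Tap1, Tap2, Psmb8 and Psmb9 form a block of red cells in all 4 groups, while H2-K1 with Tap2 and H2-D1 with H2-Q10 stay near white or blue.

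Tap1, Tap2, Psmb8 and Psmb9, which are neighbours on the chromosome, varied together in every group. Tap1 and Psmb9, which share a start region of 225 bases between their RefSeq start sites and overlap by 212 bases as annotated, had r from 0.72 to 0.87 over the groups, rho from 0.73 to 0.84, and r from 0.71 to 0.82 without the 2 farthest mice, with a highest adjusted permutation p of 7.2e-05. Within G11L1 mice r ran from 0.64 to 0.92 and within G11L2 mice from 0.74 to 0.85. Psmb8 and Psmb9 had r from 0.63 to 0.88 (rho 0.59 to 0.80; 0.58 to 0.84 without the farthest mice; highest adjusted permutation p 7.2e-05), with 0.63 to 0.92 within G11L1 mice and 0.64 to 0.84 within G11L2 mice. Tap2 had r from 0.57 to 0.72 with Psmb9 and from 0.55 to 0.69 with Psmb8, both called in all groups. Their rho ran from 0.59 to 0.65 and from 0.51 to 0.62, and r without the 2 farthest mice from 0.58 to 0.65 and from 0.55 to 0.65. Tap1 had r from 0.59 to 0.75 with Psmb8 (rho 0.51 to 0.65, and 0.50 to 0.66 without the farthest mice) and from 0.38 to 0.57 with Tap2 (rho 0.42 to 0.48, and 0.35 to 0.44), both called in all groups.

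The classical heavy chains varied with tapasin. H2-D1 and Tapbp had r from 0.38 to 0.64 (rho 0.36 to 0.65, and 0.33 to 0.58 without the 2 farthest mice), called in all groups, while H2-Q10 and Tapbp were called in 1. H2-K1 and Tapbp had r from 0.52 to 0.68 (rho 0.49 to 0.58, and 0.40 to 0.61 without the 2 farthest mice), called in all groups, and within G11L1 mice 0.26 to 0.69 and within G11L2 mice 0.50 to 0.72. H2-K1 and H2-D1 had r from 0.45 to 0.66 (rho 0.33 to 0.67, and 0.31 to 0.61 without the 2 farthest mice), called in all groups by r and in 3 by rho, with 0.51 to 0.60 within G11L1 mice and 0.41 to 0.75 within G11L2 mice. H2-D1 and H2-Q10 were not called in any group (r -0.07 to 0.15), and neither were H2-K1 and Tap2 (-0.26 to 0.06), nor H2-D1 and Tap1 (0.07 to 0.28). H2-K1 and H2-Q10 had r of 0.60, 0.14, 0.41 and 0.43 in high fat males, chow males, high fat females and chow females, and whether these r differ from one another was not tested. H2-Q10 was not called with Tap2, Psmb8, Psmb9 or Nlrc5 in any group.

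Other pairs called in all groups joined the heavy chains, tapasin and Nlrc5 to the processing genes. H2-K1 and Tap1 had r from 0.43 to 0.63 (rho 0.42 to 0.59, and 0.40 to 0.55 without the 2 farthest mice). H2-K1 and Psmb8 had r from 0.35 to 0.49, with rho (0.19 to 0.45) called in 2 groups and r of 0.15 to 0.44 without the 2 farthest mice. Tapbp and Psmb8 had r from 0.42 to 0.46 (rho 0.34 to 0.40, and 0.31 to 0.44). Psmb8 and Nlrc5 had r from 0.46 to 0.57 (rho 0.34 to 0.60, and 0.37 to 0.51).

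Interferon genes varied with some of the 10. Correlations with the summed signal of 15 lists made 600 tests. How many of all tested genes vary as closely with these sums was not computed, so the counts below only describe the 10 genes. The sum of type I interferon stimulated genes was called with Psmb8 in 4 of 4 groups (r 0.45 to 0.79, rho 0.48 to 0.75, 0.38 to 0.79 without the farthest mice), and in 21 of 40 tests over the 10 genes. The sum of transcription regulators of class I was also called in 21 of 40, among them with Tap1 in 4 of 4 groups (r 0.45 to 0.58, 0.22 to 0.47 without the farthest mice), where rho ran from 0.21 to 0.48 and was called in 2. The interferon gamma list was called in 16 of 40. The sum of the other class I heavy chains was called with B2m in 4 of 4 groups (r 0.40 to 0.50, rho 0.40 to 0.51). Azgp1 weighed most in that sum, with a median signal of 253 over all mice, against 50.7 for Cd1d1, the next highest. The r thus says little about the H2 genes of the list, and a sum without Azgp1 was not tested. Kupffer markers were called in 9 of 40, among them with Psmb8 in 3 groups (r 0.24 to 0.54).

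The genes most like each member, by Spearman's rho of residuals over the 192 mice and with no test, included genes near by for 9 of the 10. Among the 20 most alike genes, 13 lay within 2 Mb of H2-K1, 8 of H2-D1 and 10 of H2-Q10, and 7, 8, 5, 3 and 4 of Tap1, Tap2, Tapbp, Psmb8 and Psmb9, while 1.05% to 1.14% of all tested genes lie that close. None lay within 2 Mb of B2m, and 1 lay within 2 Mb of Nlrc5, where 0.319% and 0.326% of tested genes lie. The most alike gene of H2-K1 was Cyp21a2-ps (rho 0.72), a pseudogene in the MHC, followed by H2-Q6 (0.66), H2-Q7 (0.62), H2-T22 (0.56) and H2-D1 (0.54). For H2-D1 it was H2-Q6 (0.68), and for H2-Q10 H2-T22 (0.63). Related heavy chain genes may share reads.

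Interferon genes also stood among the most alike genes. The 2 interferon lists hold 0.308% of the tested genes. Among the 20 most alike genes, 9 for Psmb9, 8 for Tap1, 7 for Psmb8, 6 for Nlrc5, 5 for B2m, 3 for H2-D1, 2 each for Tap2 and Tapbp, 1 for H2-K1 and 0 for H2-Q10 stood on them. Psmb8 was most like Psmb9 (0.76), Gm12250 (0.63), Igtp (0.62), an interferon-induced GTPase, and Zbp1 (0.60), a sensor of nucleic acids. B2m was most like Bst2 (0.45), which tethers budding viruses to the cell, and H2-D1 (0.44). Nlrc5 was most like Parp14 (0.55) and 9330175E14Rik (0.52), which overlaps it on the opposite strand.

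**Figure D5:**
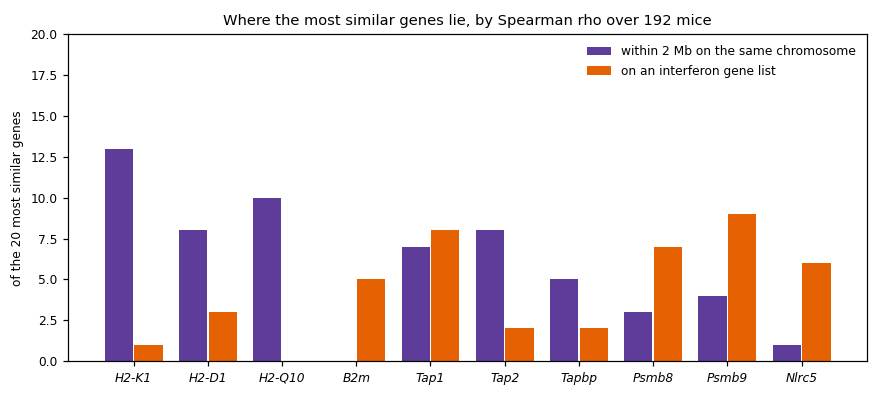
Of the 20 genes most similar to each of the 10 by Spearman rho over 192 mice, the number within 2 Mb on the same chromosome (purple) and the number on an interferon gene list (orange). H2-K1 has 13 near neighbours and Psmb9 has 9 interferon genes.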

How the data were processed

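Liver RNA of 192 mice was measured by RNA-seq. The authors deposited a single table of signal, upper-quartile normalized within each mouse, as its title says. The submitters' processing notes name CASAVA 1.8.0, GRCm38 and mm10, while the aligner, the counting tool and how the technical repeats were joined are not given in the sources used here. Of values up to 100 reads, 78.4% to 82.5% lay within 0.1 of a whole read. That was too few to recover reads, and count tests were not used. Precision rests on the number of mice.

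Genes above 0 in at least 46 mice with a mean of at least the pseudocount were kept. Values were tested as log2(value + 0.0629), so changes of low genes are understated. limma 3.58.1 in R 4.3.3 fitted the 4 groups with the generation label as covariate, with Benjamini-Hochberg adjustment over 14606 genes. Modes were fitted with mclust 6.1.1. A gene had separate modes when the BIC gain was over 10, each component held at least 5% of the mice and Ashman's D was over 2. Permutation tests are two-sided. The scripts were tested on simulated data. All 10 genes are named in each comparison, up to 4 genes of each list by smallest p, and for each of the 10 the 5 genes of highest rho. The members and lists were chosen with earlier results of these data known. Litters and cages of the mice are not given in the sources used here.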

Additional observations from a re-analysis of the deposited data

Results flagged for a closer look

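The diet change differed between males and females in 4 ratios within a mouse, by a test of that difference: H2-Q10 over H2-K1 plus H2-D1 (-0.51, males minus females on the log2 scale), Psmb8 over Psmb5 (0.41), Psmb9 over Psmb6 (0.47) and Psmb10 over Psmb7 (0.25). The 3 constitutive subunits in these ratios had a median interaction of -0.123 as deposited, and 1 was called by limma. The proteasome ratios thus do not show a change of the numerator alone.

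By limma's interaction term, 4 of 64 tested genes of the pathway lists also had a diet change that differed between males and females, where 8.37% of all tested genes did, so the share on the lists was not above that of all genes. They were the constitutive subunit Psmb6 (-0.14, adjusted p 0.0335), the 20S subunits Psma6 (-0.19, adjusted p 0.00245) and Psma2 (-0.15, adjusted p 0.0248), and Nfyb, a subunit of the factor that binds CCAAT boxes (-0.31, adjusted p 0.0303). After median-of-ratios rescaling their adjusted p was 0.232, 0.0277, 0.179 and 0.105 by limma, and after quantile normalization 0.331, 0.0497, 0.359 and 0.116, so the call held for Psma6 alone.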

How the results depend on the processing

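Counts of the 10 genes called moved most with scaling. With median-of-ratios rescaling 8 were called for sex and 6 for diet over both sexes, and with quantile normalization 9 and 7. Quantile normalization called 1 in females and 8 in males, and reversed B2m for diet (0.14), diet in females (0.15), diet in males (0.14) and sex (-0.14). Within G11L1 and G11L2 mice, which are fewer, diet called 1 and 0 by limma, against 2 and 1 at an unadjusted p under 0.05, and diet in males 2 and 1. Without the 10 mice least alike, chosen after seeing the data, diet in males called 2.

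Over all genes, diet in females called 2348 and 2432 within the generation labels. Diet in males called 4908 after quantile normalization and 4930 within G11L2. The interaction called 617 after median-of-ratios rescaling, 633 after quantile normalization, 546 within G11L1 and 54 within G11L2. The generation label called 262 and 254 under the same scalings and 344 with array weights. Correlations called numbered 62 within G11L1 and 53 within G11L2, and the test of ratio differences between the sexes called 0 within G11L2, where Psmb10 over Psmb7 had an unadjusted permutation p of 0.0374. The cause was not tested beyond the fewer mice. With the mouse number as a replicate block, 5 of the 10 genes were lower in males (Nlrc5 adjusted p 0.0491 by limma). Of 92 pairs of a female and a male with the same number and diet, 10 had a correlation over 0.1. The median was 0.01 and the highest 0.32, and pairs with different numbers were not compared. H2-D1 in males was not called without the filter (adjusted p 0.0555), with array weights (0.0714) or within G11L1 (0.356) or G11L2 (0.102).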

Other observations

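Beside the 10 genes, class II genes were lower in males for 8 of 8 tested genes, with H2-DMa at -0.65 and Ciita, their transactivator, at -0.74, both called by limma. On the high fat diet 3 of 8 were higher in the average of the sexes, where 15% of all genes were, with Ciita at 0.31. H2-Q1 and H2-M2, class I genes of low signal, were higher on the high fat diet in males, by 1.97 ± 0.337 and 1.19 ± 0.194 on the log2 scale, with adjusted p of 2.76e-07 and 8.32e-08 by limma. Both had a lowest value of 0, and H2-M2 had a median of 0.0594, under the pseudocount, so their values reach the floor of the signal. Of the 18 other class I heavy chain genes, 3 were higher and 4 lower in males, against 11.4% and 39.8% of all genes. The iron regulator Hfe fell by 0.27 on the high fat diet in males.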
